A study of Mus musculus with 28 samples.

Results

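The subject is a set of 48 genes of the cell division cycle, taken by name and divided by role: 10 regulators of the passage from G1 into S phase, 13 genes of DNA replication and nucleotide supply, 22 genes of the G2 phase and mitosis (G2/M), and 3 inhibitors of cyclin-dependent kinases. All 48 were listed in each of the 3 deposited count tables, among 17752 features for the livers, 56748 for the NFATc3-MKI macrophage set and 21959 for the ASK1-MKI macrophage set. RNA sequencing of 28 libraries had been made to compare gene expression after changes of NFATc3, a calcium-activated transcription factor, or ASK1 (gene Map3k5), a stress-activated kinase, in macrophages. Livers came from male mice that were 8 weeks old when a methionine- and choline-deficient diet, which produces steatohepatitis, began. The diet lasted 4 weeks in all 4 liver groups of 4 libraries each: Lyz2-Cre, NFATc3-MKO (macrophage knockout of NFATc3), ASK1-MKO (macrophage knockout of ASK1) and MDKO (knockout of both). Bone marrow-derived macrophages (BMDMs) were the product of a 7-day culture of marrow cells with 30% L929-conditioned medium, which supplies the macrophage growth factor CSF1, and formed 4 groups of 3 libraries: NFATc3-MKI (macrophage knock-in) with its own Lyz2-Cre controls and ASK1-MKI with its own Lyz2-Cre controls. The control groups of both tissues have the genotype Lyz2-Cre and therefore carry the Cre recombinase too, which the Lyz2 locus drives in myeloid cells. In the livers the labelled changes concern only those cells, whereas the RNA is that of the whole organ. No label says that the libraries of a group came from separate animals or cultures, so the p-values measure the spread between these libraries, which may be technical.

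A cell that is told to divide first raises D-type cyclins, which with Cdk4 inactivate the retinoblastoma protein and free the E2F factors to switch on the genes of replication. Cyclin E and Cdk2 then start S phase, the Mcm helicase opens the origins, and cyclin B with Cdk1 later drives the cell into mitosis. A separate set of genes serves mitosis and is controlled through the DREAM and MYB-FOXM1 complexes. In the adult liver most hepatocytes rest outside the cycle and re-enter it after injury, while cultured macrophages divide as long as CSF1 drives them.

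Depth was 20601146 to 30834525 counts in the livers except for MDKO replicate 3, with 8912104, and 7693464 to 9398163 and 16051951 to 18728508 in the NFATc3-MKI and ASK1-MKI sets. Levels are given as CPM, the count in proportion to the scaled size of the library. The targeted genes did not follow every label: Nfatc3 was 80.9 ± 8.01 CPM in the cultures labelled NFATc3-MKI and 97.2 ± 7.33 in their controls (SD, n = 3; log2 difference -0.26, SE 0.10, edgeR adjusted p = 0.0371), and Map3k5 was 26.9 ± 0.349 CPM in the cultures labelled ASK1-MKI and 30.1 ± 0.174 in their controls (-0.16, SE 0.06, adjusted p = 0.0266). Map3k5 was also higher, not lower, in the livers labelled ASK1-MKO, at 46.2 ± 6.12 CPM against 30.9 ± 2.21 (SD, n = 4; adjusted p = 0.0262), and whole-liver Nfatc3 was 28.3 ± 5.78 CPM in the NFATc3-MKO livers against 36.3 ± 3.94, which did not pass the test (adjusted p = 0.12). All 4 MDKO libraries were nearer to the Lyz2-Cre library with the same number than to any library of their own group, and the livers labelled MDKO had 36.6 ± 4.6 CPM of Nfatc3 and 30.5 ± 2.15 of Map3k5. The 4 Y-linked genes summed to 0 CPM in all 3 cultures labelled ASK1-MKI and to 232 to 240 in their controls, whereas every other library had them, so in that comparison the sex of the source and the genotype cannot be told apart. All 48 members lie on autosomes. For 5 of them (Ccnb1, Ccnb2, Ccnd3, Pcna and Tyms) the annotation lists a pseudogene of the same name, so their counts are uncertain where reads were split between copies.

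The cultures labelled ASK1-MKI held much less RNA of the mitotic genes than their controls. All 22 G2/M members fell, by a median of 3.06 on the log2 scale, and the summed G2/M level was 92.0, 92.9 and 91.8 CPM against 627, 640 and 618 CPM in the controls, 6.81-fold lower. Replication genes fell less: 12 of 13 fell, with a median log2 difference of -0.97, and their sum was 362, 365 and 373 CPM against 528, 525 and 517 CPM, 1.43-fold lower. Over all 48 members 44 fell and 1 rose at an edgeR adjusted p under 0.05 (called), where 49.1% of the 11380 genes tested were called, 24.5% lower and 24.6% higher. At least 2-fold lower were 30 members, all 22 of the G2/M genes among them, against 4.89% of all genes, and at least 4-fold lower were 18 of the 22 G2/M genes against 1.8%. The median log2 difference of all genes was 0.00. The groups did not overlap for 46 of the 48 members, against 54.5% of all genes. The libraries within each of these groups differed by only 1.52 to 1.66 times the sampling noise of their counts, which bears on how small the p-values are. In these bulk RNA samples fewer dividing cells and less RNA of these genes per cell cannot be told apart.

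**Figure D1:**
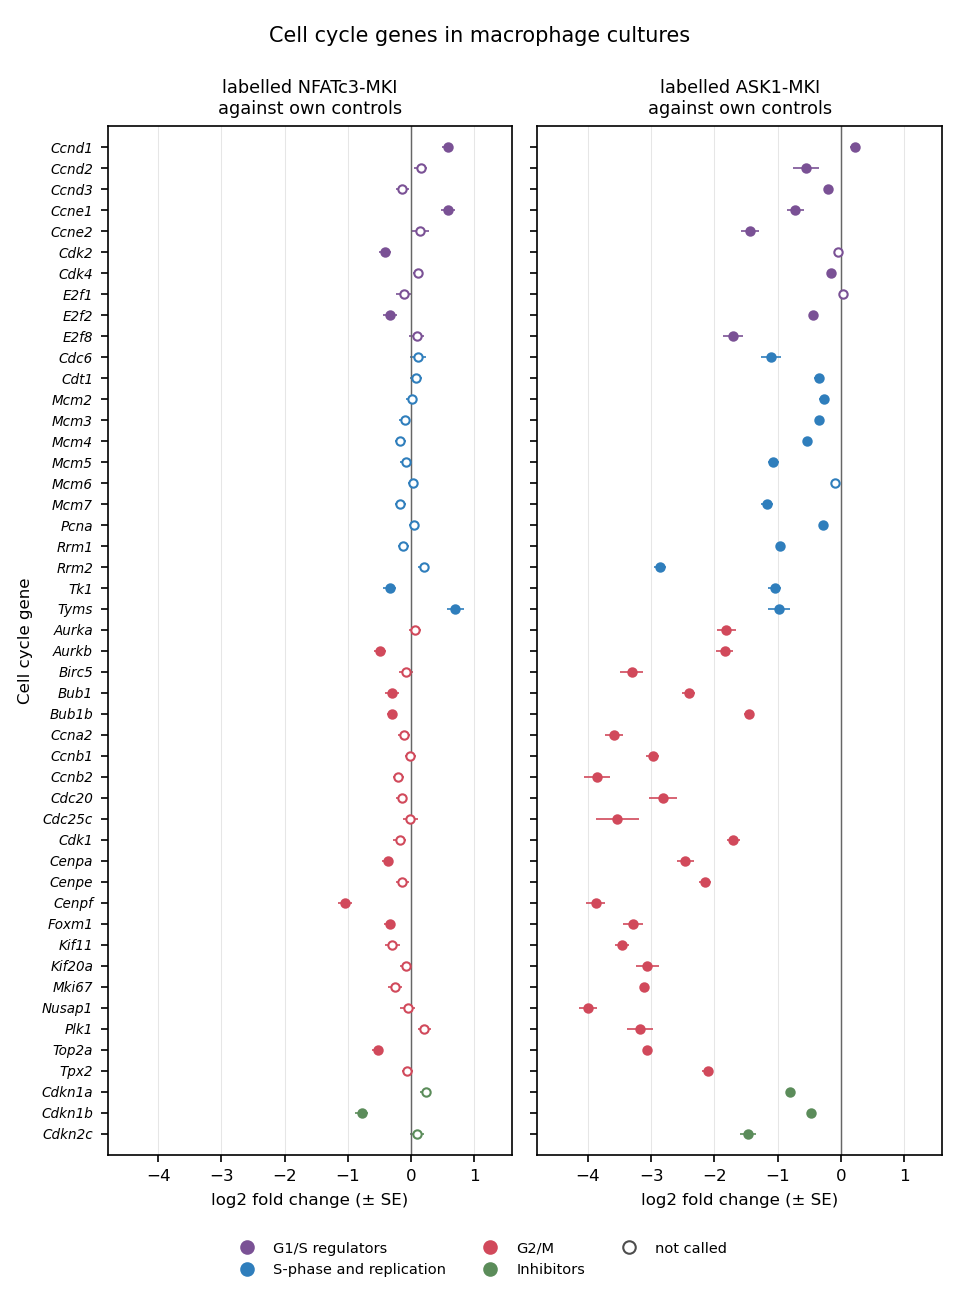
Log2 difference of each of the 48 members in the BMDM cultures labelled ASK1-MKI and NFATc3-MKI against their own controls (points, with bars of 1 SE), ordered by role, with filled points for an adjusted p under 0.05 and open points for the others. In the ASK1-MKI comparison all 22 G2/M members lie between -4.00 and -1.45, while in the NFATc3-MKI comparison the members lie between -1.04 and 0.70.

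Mki67, the coat protein of mitotic chromosomes used as a mark of dividing cells, had 22.7, 21.4 and 21.8 CPM in the cultures labelled ASK1-MKI and 185, 193 and 190 CPM in the controls. The groups were far apart and each was tight, and the gene fell by 3.11 on the log2 scale (SE 0.04, edgeR adjusted p = 4.07e-101). Top2a, the topoisomerase that untangles sister DNA, had 11.8, 13.7 and 13.5 CPM against 110, 111 and 105 CPM (log2 difference -3.06, SE 0.06, adjusted p = 3.24e-87). Cyclin A2, Ccna2, which acts in S phase and at the entry into mitosis, stood at 1.69, 1.22 and 1.61 CPM against 17.6, 17.9 and 18.8 CPM (-3.59, SE 0.14, adjusted p = 1.33e-49). No library of either group came near the other for these genes. Ccnb1, cyclin B1, had 2.89, 2.60 and 3.10 CPM against 22.0, 24.3 and 21.6 CPM (-2.98, SE 0.11, adjusted p = 2.34e-50). Its kinase Cdk1 was less far down than its cyclin, with 5.40, 6.08 and 5.6 CPM against 20.2, 17.2 and 18.1 CPM (-1.70, SE 0.10, adjusted p = 2.02e-31).

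Nusap1, which binds spindle microtubules, had 1.38, 1.39 and 1.01 CPM in the cultures labelled ASK1-MKI and 20.1, 21.0 and 19.6 CPM in the controls, the lowest value of the 48 at a log2 difference of -4.00 (SE 0.14, edgeR adjusted p = 3.46e-54). Kif11, the motor that pushes the spindle poles apart, had 3.01, 2.55 and 2.56 CPM against 31.3, 31.5 and 26.9 CPM (-3.46, SE 0.11, adjusted p = 1.59e-59). For Cenpf, a large protein of the outer kinetochore, the values were 1.44, 1.16 and 1.01 CPM against 16.6, 18.1 and 18.5 CPM (-3.88, SE 0.15, adjusted p = 1.35e-50). No mutant culture was above 3.01 CPM for any of these genes, and no control was below 16.6 CPM. Among the other G2/M members, the differences were -3.86 for cyclin B2 (Ccnb2), -3.54 for the Cdk1-activating phosphatase Cdc25c, -3.31 for survivin (Birc5), -3.29 for the mitotic transcription factor Foxm1 and -3.18 for the kinase Plk1. The smallest of the 22 were -1.45 for the checkpoint kinase Bub1b and -1.70 for Cdk1, followed by -1.81 for Aurora A (Aurka).

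The replication genes ranged widely. Rrm2, the regulated small subunit of ribonucleotide reductase, which makes DNA precursors, had 3.70, 4.74 and 4.59 CPM in the cultures labelled ASK1-MKI and 32.3, 31.3 and 31.3 CPM in the controls (log2 difference -2.86, SE 0.10, edgeR adjusted p = 1.18e-56). It was the one replication gene at least 4-fold lower. Mcm5, a subunit of the replicative helicase, had 9.91, 10.9 and 11.1 CPM against 21.7, 21.9 and 23.5 CPM (-1.07, SE 0.09, adjusted p = 1.38e-22), and the subunit Mcm7 and the helicase loader Cdc6 fell by 1.17 and 1.11. Tyms, the thymidylate synthase, had 2.82, 2.95 and 2.20 CPM against 6.07, 4.32 and 5.36 CPM (-0.98, SE 0.17, adjusted p = 5.2e-07). By contrast the subunit Mcm2 had 15.5, 15.3 and 15.1 CPM against 19.1, 17.6 and 18.8 CPM (-0.27, adjusted p = 0.00296). The sliding clamp Pcna had 151, 149 and 158 CPM against 188, 193 and 177 CPM (-0.28, SE 0.03, adjusted p = 1e-14). These groups still did not overlap, but the difference was a small part of the level. Mcm6 was the member that did not pass, at -0.10 (adjusted p = 0.0571).

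Of the 10 regulators of the G1/S passage, 7 fell, 1 rose and 2 did not pass, with a median log2 difference of -0.32, the smallest of the 4 roles. Ccnd1, cyclin D1, which links growth factor signals to the cycle, had 20.2, 22.5 and 21.3 CPM in the cultures labelled ASK1-MKI and 17.6, 18.6 and 18.4 CPM in the controls, and was the 1 member that rose (0.23, SE 0.08, edgeR adjusted p = 0.00818). Without ASK1-MKI replicate 2 this call was lost (adjusted p = 0.068). Ccne1, cyclin E1, had 5.27, 4.46 and 5.84 CPM against 8.94, 8.53 and 8.12 CPM (-0.72, SE 0.13, adjusted p = 7.26e-07). The replication-gene activator E2f1 had 34.3, 33.7 and 38.1 CPM against 32.8, 33.0 and 37.3 CPM, which overlapped (0.04, adjusted p = 0.632), and Cdk2 was at -0.04. Other G1/S members fell more, with -1.71 for E2f8, an atypical E2F that shuts off replication genes, and -1.44 for cyclin E2 (Ccne2).

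All 3 inhibitors fell as well. Cdkn1a, which encodes p21, had 86.0, 88.8 and 81.9 CPM in the cultures labelled ASK1-MKI and 144, 149 and 153 CPM in the controls (log2 difference -0.80, SE 0.03, edgeR adjusted p = 3.55e-45). Cdkn1b, which encodes p27, had 57.4, 56.7 and 58.8 CPM against 80.0, 77.4 and 82.7 CPM (-0.47, SE 0.04, adjusted p = 3.59e-19). Cdkn2c, which encodes the Cdk4 and Cdk6 inhibitor p18, had 3.76, 4.22 and 4.76 CPM against 12.1, 12.1 and 11.1 CPM (-1.47, SE 0.12, adjusted p = 7.26e-21). In none of the 3 did the groups overlap. The ratio of the summed G2/M to the summed replication level was 0.255, 0.255 and 0.246 in the cultures labelled ASK1-MKI and 1.19, 1.22 and 1.19 in their controls.

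Genes of the same phases outside the 48 were also tested in this comparison. Of 50 other G2/M genes tested, 48 fell and 1 rose, with a median log2 difference of -2.05, among them the cytokinesis genes Anln (-3.27) and Prc1 (-2.86), the spindle-pole gene Aspm (-4.16) and the condensin subunit Smc4 (-0.88). Of 35 other replication genes 29 fell (median -0.58), including the checkpoint mediator Clspn (-2.34), the methylation-maintenance factor Uhrf1 (-1.59) and the helicase cofactor Mcm10 (-2.22). Of 22 other G1/S genes 11 fell and 2 rose (median -0.18), among the former E2f7 (-3.38), Mybl2 (-1.70), Cdk6 (-0.37) and Tfdp1 (-0.28). Markers of other cells moved too: the neutrophil list summed to 288 to 300 CPM in the cultures labelled ASK1-MKI and 1194 to 1241 in the controls (3 of 4 tested fell), and the Kupffer list to 288 to 307 against 879 to 903 (3 of 3 fell, Clec4f at 0 in both groups). The B and plasma cell list summed to 7.40 to 8.85 against 8.49 to 10.4 CPM, where 3 of 4 tested fell and 1, Jchain, rose (2.67). The T and NK list summed to 8.97 to 12.4 against 15.1 to 16.8 with Cd3e and Cd3d at 0. Of its 6 genes 5 were at 0 in the cultures labelled ASK1-MKI, so that sum was Cd4 alone. Cd4 was also the 1 gene of the list tested, and it fell (-0.64). The erythroid list summed to 53.9 to 60.2 against 86.9 to 94.3, where Tfrc was the 1 gene tested and fell (-0.70). The stellate and fibroblast list summed to 22.7 to 24.1 against 16.1 to 18.4 (3 of 5 tested rose). Macrophage markers were high in both, at 35257 to 37239 against 33417 to 35753 CPM (4 of 7 rose, 2 fell). The part of these other cells in the result was not tested.

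The promoters of the G2/M and replication members are shown because both kinds of gene are known to be switched by different elements. RefSeq windows of 300 bases, from 250 before to 50 after the start in build GRCm38.p6, were found for 38 of the 48 members. The CHR element that DREAM and MYB-FOXM1 complexes use (searched as TTTGAA or TTCGAA on both strands; the second is its own reverse complement) was in 12 of 16 G2/M promoters, 75.0%, in 2 of 12 replication promoters, 16.7%, and in 21.7% of the 27025 genes with a window. CCAAT on either strand was in 14 of 16 G2/M promoters (87.5%), 8 of 12 replication promoters (66.7%) and 41.1% of all genes. An E2F element (searched on both strands as TTGGCGC and as the variants TTCCCGC, then the variant TTGCCGC, and the variant TTCGCGC; the first and the reverse of the last can overlap) was in 3 of 16 (18.8%), 8 of 12 (66.7%) and 10.9%. A match is a description of the letters in the window and not a measured binding site. Shown are 7 promoters as 200 bases up to the base before the start, 5′ to 3′ on the strand of the gene: first 4 G2/M genes that fell in the cultures labelled ASK1-MKI (Cdk1 by 1.70, Cdc20 by 2.81, Kif11 by 3.46 and Mki67 by 3.11 on the log2 scale), then 3 replication genes that differed less there (Mcm5 by -1.07, Mcm6 by -0.10 and Rrm1 by -0.97). Capitals mark CCAAT, CHR and E2F matches on either strand.
Cdk1 (chr10:69352913-69353112, minus strand): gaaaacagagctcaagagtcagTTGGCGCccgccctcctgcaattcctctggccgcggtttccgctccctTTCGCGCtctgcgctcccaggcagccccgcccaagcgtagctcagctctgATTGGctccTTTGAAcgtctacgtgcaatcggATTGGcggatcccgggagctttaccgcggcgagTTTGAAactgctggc
Cdc20 (chr4:118437344-118437543, minus strand): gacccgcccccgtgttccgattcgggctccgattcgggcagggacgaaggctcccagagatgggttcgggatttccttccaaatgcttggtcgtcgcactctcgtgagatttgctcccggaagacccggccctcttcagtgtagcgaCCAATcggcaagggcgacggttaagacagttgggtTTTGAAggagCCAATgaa
Kif11 (chr19:37376182-37376381, plus strand): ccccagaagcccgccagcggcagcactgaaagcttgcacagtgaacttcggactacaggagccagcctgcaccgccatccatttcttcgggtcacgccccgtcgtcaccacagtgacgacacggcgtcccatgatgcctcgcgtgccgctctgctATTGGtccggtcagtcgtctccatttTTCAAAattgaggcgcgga
Mki67 (chr7:135716380-135716579, minus strand): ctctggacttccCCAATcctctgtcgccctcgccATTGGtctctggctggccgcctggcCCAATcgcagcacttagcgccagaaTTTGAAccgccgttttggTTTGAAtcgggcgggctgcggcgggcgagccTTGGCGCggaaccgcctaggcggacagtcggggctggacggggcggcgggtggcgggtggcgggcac
Mcm5 (chr8:75109309-75109508, plus strand): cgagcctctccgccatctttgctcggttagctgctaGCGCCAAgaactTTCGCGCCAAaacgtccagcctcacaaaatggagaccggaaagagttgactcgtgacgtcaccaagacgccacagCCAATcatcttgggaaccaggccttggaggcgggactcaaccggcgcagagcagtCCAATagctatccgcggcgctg
Mcm6 (chr1:128359706-128359905, minus strand): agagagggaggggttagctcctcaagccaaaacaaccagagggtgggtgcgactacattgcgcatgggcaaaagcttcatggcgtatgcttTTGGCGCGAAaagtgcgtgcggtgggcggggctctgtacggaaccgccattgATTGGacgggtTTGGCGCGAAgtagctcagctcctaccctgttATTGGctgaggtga
Rrm1 (chr7:102441495-102441694, plus strand): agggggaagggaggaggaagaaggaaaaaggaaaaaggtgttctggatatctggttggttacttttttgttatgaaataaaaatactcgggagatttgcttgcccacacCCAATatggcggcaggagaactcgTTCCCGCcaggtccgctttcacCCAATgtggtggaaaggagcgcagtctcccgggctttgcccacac
In Kif11 the CCAAT letters lie 45 to 41 bases before the start and the CHR letters from 19 to 14 bases before it. Cdc20 has CCAAT 53 to 49 and CHR letters from 18 to 13 bases before its start, with a second CCAAT nearer to the start. Mcm5, Mcm6 and Rrm1 hold CCAAT and E2F letters and no CHR in these bases, while Cdk1 and Mki67 hold all 3 kinds. These promoters are examples, and other members went otherwise in their windows. Nusap1 (-4.00) and Birc5 held none of the 3 kinds, and Ccnb1 (-2.98) and Rrm2 (-2.86) held no CHR. Mcm2 (-0.27) and Mcm7, which fell less, held CHR letters. Whether the letters go with the size of the fall was not tested.

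The cultures labelled NFATc3-MKI differed from their controls in fewer cycle genes and by less. At an edgeR adjusted p under 0.05, 14 of 48 members were called, 3 higher and 11 lower, against 33.3% of all 13363 genes tested (16.5% higher, 16.8% lower), so the share of members called was near that of all genes. Mitotic genes fell where they were called: 7 of 22 fell, none rose, and the median log2 difference was -0.16. The summed G2/M level was 2648, 3015 and 2705 CPM against 3527, 3063 and 3394 CPM in the controls, and the summed replication level 1548, 1599 and 1633 against 1648, 1547 and 1692 CPM. The groups did not overlap for 19 of 48 members, against 45.8% of all genes. The 3 members that rose were Ccnd1, Ccne1 and Tyms.

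Cenpf had 48.4, 65.2 and 50.7 CPM in the cultures labelled NFATc3-MKI and 120, 104 and 113 CPM in the controls, the largest difference of the 48 and the one member at least 2-fold lower (log2 difference -1.04, SE 0.11, edgeR adjusted p = 9.29e-08; 1.72% of all genes were that much lower). Top2a had 219, 258 and 226 CPM against 361, 317 and 335 CPM (-0.53, SE 0.09, adjusted p = 6.35e-05). Aurkb, the Aurora kinase that corrects chromosome attachment, had 76.6, 71.0 and 85.1 CPM against 105, 107 and 115 CPM (-0.49, SE 0.09, adjusted p = 0.000249). In each of the 3 genes every mutant culture was below every control. Cenpa, the histone that marks centromeres, had 197, 170 and 186 CPM against 254, 223 and 240 CPM (-0.37, SE 0.09, adjusted p = 0.00168). Bub1, Bub1b and Foxm1 also fell, by 0.30, 0.30 and 0.34. The common proliferation marks gave no call: Mki67 had 494, 667 and 504 CPM against 710, 594 and 682 CPM, which overlapped (-0.25, SE 0.11, adjusted p = 0.0698). Ccna2 had 123, 152 and 129 CPM against 155, 126 and 156 CPM (-0.11, adjusted p = 0.419). Ccnb1 had 118, 144 and 130 CPM against 141, 123 and 132 CPM (-0.01, adjusted p = 0.932). Replicate 2 was the highest mutant culture and the lowest control for all 3 of these genes. Cdk1 had 41.2, 41.7 and 43.0 CPM against 52.3, 47.8 and 42.9 CPM (-0.18, adjusted p = 0.186).

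On the replication side Tyms had 24.7, 30.1 and 27.4 CPM in the cultures labelled NFATc3-MKI and 15.3, 16.6 and 18.8 CPM in the controls, with no overlap (log2 difference 0.70, SE 0.13, edgeR adjusted p = 0.000254). The other nucleotide enzymes did not share this: Tk1, the thymidine kinase of the salvage route, fell by 0.34, and Rrm2 had 118, 134 and 128 CPM against 115, 98.9 and 116 CPM (0.20, adjusted p = 0.0961). Mcm2 had 129, 115 and 132 CPM against 126, 120 and 127 CPM (0.01, adjusted p = 0.943). Mcm5 had 115, 109 and 120 CPM against 120, 118 and 126 CPM (-0.08, adjusted p = 0.504). Both helicase genes overlapped between the groups, as did Pcna with 242, 259 and 252 CPM against 260, 224 and 243 CPM (0.05, adjusted p = 0.677). Over the 13 replication members 1 rose, 1 fell and the median was 0.01.

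Cyclins D1 and E1 were the G1/S regulators that rose. Ccnd1 had 285, 330 and 352 CPM in the cultures labelled NFATc3-MKI and 217, 219 and 209 CPM in the controls (log2 difference 0.58, SE 0.09, edgeR adjusted p = 1.94e-05). Ccne1 had 51.5, 49.8 and 58.5 CPM against 39.1, 32.0 and 35.4 CPM (0.59, SE 0.11, adjusted p = 0.000198). Both were higher in every mutant culture than in any control. Of the kinases, Cdk2 fell by 0.41, and Cdk4 had 236, 213 and 243 CPM against 228, 206 and 207 CPM, which overlapped (0.11, SE 0.08, adjusted p = 0.339). Of the activators, E2f2 fell by 0.33 and E2f1 had 35.8, 29.0 and 43.8 CPM against 39.2, 39.2 and 38.4 CPM (-0.11, adjusted p = 0.545). Of the inhibitors, Cdkn1b had 83.2, 88.5 and 67.1 CPM against 135, 130 and 145 CPM and fell (-0.78, SE 0.10, adjusted p = 2.15e-06). Cdkn1a had 123, 108 and 132 CPM against 107, 99.9 and 103 CPM, without overlap and just short of the threshold (0.23, SE 0.09, adjusted p = 0.0519). Cdkn2c was at 0.10.

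Of 50 other G2/M genes 16 fell and 2 rose in the cultures labelled NFATc3-MKI (median log2 difference -0.18, against 0.00 for all genes), with Kif14 (-0.82), Aspm (-0.56), Anln (-0.46) and Knstrn (-0.41) among those that fell. Of 36 other replication genes 5 rose, Fen1 (0.55) among them, and 4 fell, Hells (-0.36) and Cdc7 (-0.37) among them. Of 20 other G1/S genes 7 fell, including Tfdp2 (-0.97), Rbl2 (-0.55), Skp2 (-0.51), which marks p27 for breakdown, and Cdk6 (-0.39). The inhibitor genes Cdkn2a, Cdkn2b and Cdkn1c were listed at 0 in all 6 libraries of this set, where 0 reads allow up to 0.322 to 0.399 CPM a library by counting error alone. In the separately made ASK1-MKI table Cdkn2b was 0.819 ± 0.164 CPM in the controls and Cdkn1c 1.16 ± 0.286 (SD, n = 3). The macrophage list summed to 2327 to 2553 CPM in the cultures labelled NFATc3-MKI and 1678 to 1804 in their controls (5 of 6 tested rose), with Mertk, a receptor of mature macrophages, at a mean of 0.0755 and 0.083 CPM. The monocyte-derived and lipid-associated list summed to 17864 to 22461 against 4817 to 5432 CPM (3 of 5 tested rose, median 0.38). Most of that sum was the single gene Spp1 (2.17), at 16918 to 21474 CPM in the cultures labelled NFATc3-MKI. The neutrophil list summed to 13.4 to 16.4 against 7.17 to 10.9 with S100a8 and S100a9 at 0, and 5 of the 6 Kupffer genes were at 0. Their part in the result was not tested.

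The 2 culture sets, both labelled as BMDMs, also stood at different levels of cycle gene RNA, and their tables were made separately, so no test was run between them. They differed in macrophage RNA too: the macrophage marker list summed to 1678 to 2553 CPM over the NFATc3-MKI set and its controls and to 33417 to 37239 over the ASK1-MKI set and its controls. Mertk was near 0 in the former, whereas 6 of the 7 listed markers were tested there and 5 of them rose. These markers therefore do not settle whether its label as primary macrophages holds. The part of the gap in macrophage RNA in the cycle gene levels was not tested. The control cultures had 3328 ± 239 CPM of summed G2/M RNA in the NFATc3-MKI set and 628 ± 11.1 in the ASK1-MKI set, and a ratio of G2/M to replication RNA of 2.04 ± 0.085 and 1.20 ± 0.0173 (SD, n = 3 each). Levels between genes can be compared only per length, here as CPM per kilobase of exon. On that scale Pcna led in both control groups, at 101 ± 7.45 and 77.5 ± 3.38. Behind it came the mitotic activator Cdc20 (70.4 ± 4.12) and Mki67 (65.8 ± 6.03) in the NFATc3-MKI controls, whose values lie within their spread of each other and of Cdk4 (65.7 ± 3.78). In the ASK1-MKI controls Cdkn1a came second (41.9 ± 1.18), well above Mki67 (18.8 ± 0.369) and Cdk4 (18.7 ± 0.675), which could not be separated. In the cultures labelled ASK1-MKI no G2/M gene was among the first 7, Pcna, Cdkn1a, Cdk4, Mcm6, Cdkn1b, E2f1 and Mcm3, and Cdc25c (0.0568 ± 0.0297) and Cenpf (0.078 ± 0.0142) stood last.

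**Figure D2:**
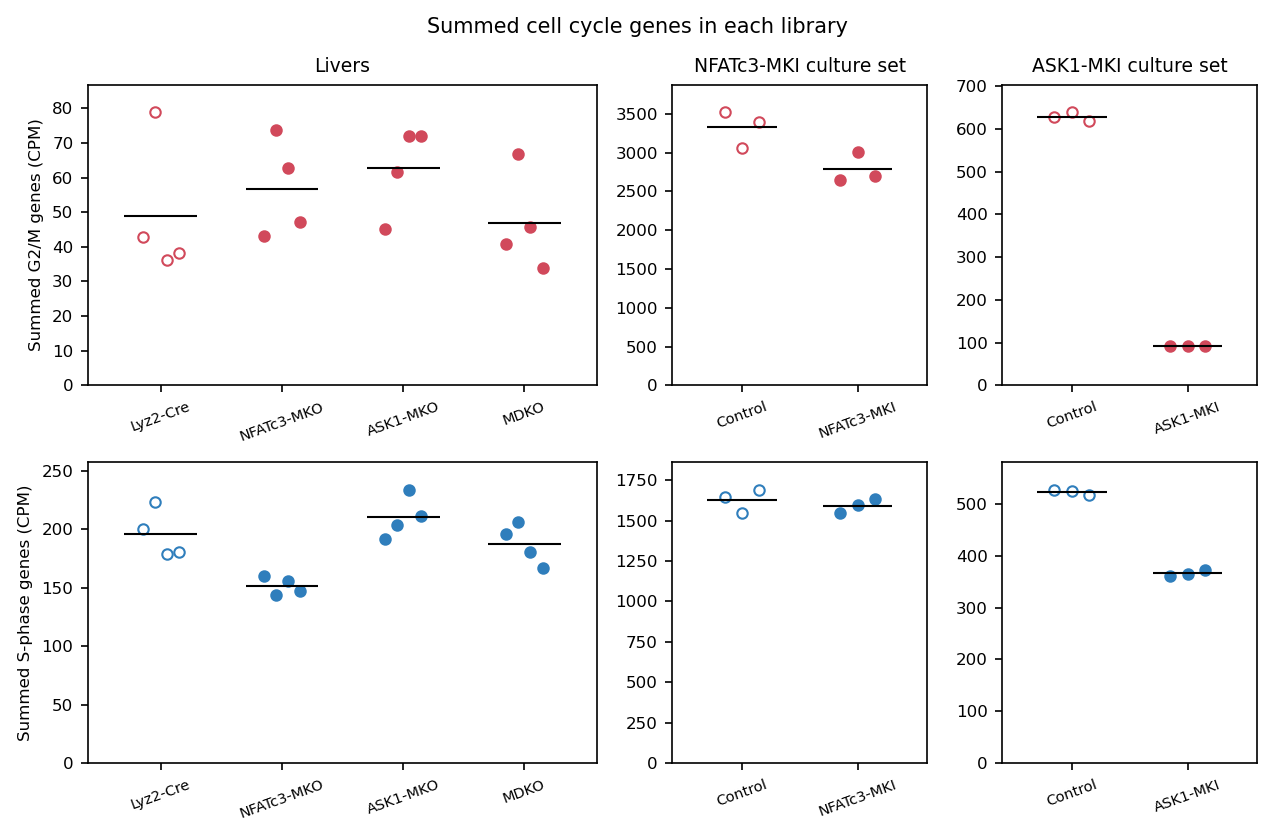
Summed CPM of the 13 replication members and the 22 G2/M members in every library of the 8 groups (points, open for Lyz2-Cre controls), with the group mean as a bar. The G2/M sums are 91.8 to 92.9 CPM in the cultures labelled ASK1-MKI and 618 to 640 in their controls, and the replication sums of the NFATc3-MKO livers, 144 to 160 CPM, lie below those of every other liver group.

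In the livers G2/M genes were scarce and their levels were uneven between libraries. Per kilobase of exon cyclin D1 stood far above all other members in the Lyz2-Cre livers, at 108 ± 14.2 CPM per kilobase, ahead of Pcna (15.5 ± 0.708), Cdk4 (8.84 ± 0.823) and Rrm2 (6.85 ± 2.2), of which the last pair did not differ beyond their spread. Cenpf (0.0537 ± 0.0239) and Cdc25c (0.0445 ± 0.0426) stood last. Cdc25c was left untested because its counts were too low, at up to 0.832 CPM, and 47 members were tested. G2/M genes varied most: in the Lyz2-Cre livers their coefficient of variation between libraries had a median of 46.8%, against 16.8% for replication genes. Replicate 2 had the highest level of 21 of the 22 G2/M genes in the Lyz2-Cre livers, and NFATc3-MKO replicate 2 that of 16 of 22 in its group. The summed G2/M level was 42.8, 79.0, 36.1 and 38.1 CPM in the Lyz2-Cre livers, 43.1, 73.7, 62.8 and 47.3 in the NFATc3-MKO livers, 45.2, 61.6, 71.9 and 72.1 in those labelled ASK1-MKO, and 40.8, 66.9, 45.7 and 33.9 in those labelled MDKO. These groups overlapped widely, and no G2/M member was called in any comparison of 2 liver groups.

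In NFATc3-MKO livers Mcm4, Cdc6, Mcm3 and Mcm7, which load or form the replicative helicase, fell against Lyz2-Cre livers, and of these calls the Mcm4 call held with each library left out. The summed level of all 13 replication members was 160, 144, 156 and 147 CPM against 200, 223, 179 and 181 CPM, with no overlap, and was also below the 192, 204, 234 and 211 CPM of the livers labelled ASK1-MKO and the 196, 206, 181 and 167 CPM of those labelled MDKO. Of the 47 members tested 5 were called (4 lower, 1 higher), against 8.45% of all 13309 genes (4.67% lower, 3.77% higher), so the whole set was called about as often as genes at large. The calls were replication genes and 1 inhibitor. Of the 13 replication members, 4 fell and 12 had a negative difference (median log2 difference -0.47, against 0.03 for all genes), while 15 of the 21 G2/M members tested had a positive one (median 0.20) with none called. Groups did not overlap for 6 members, against 12.8% of all genes.

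**Figure D3:**
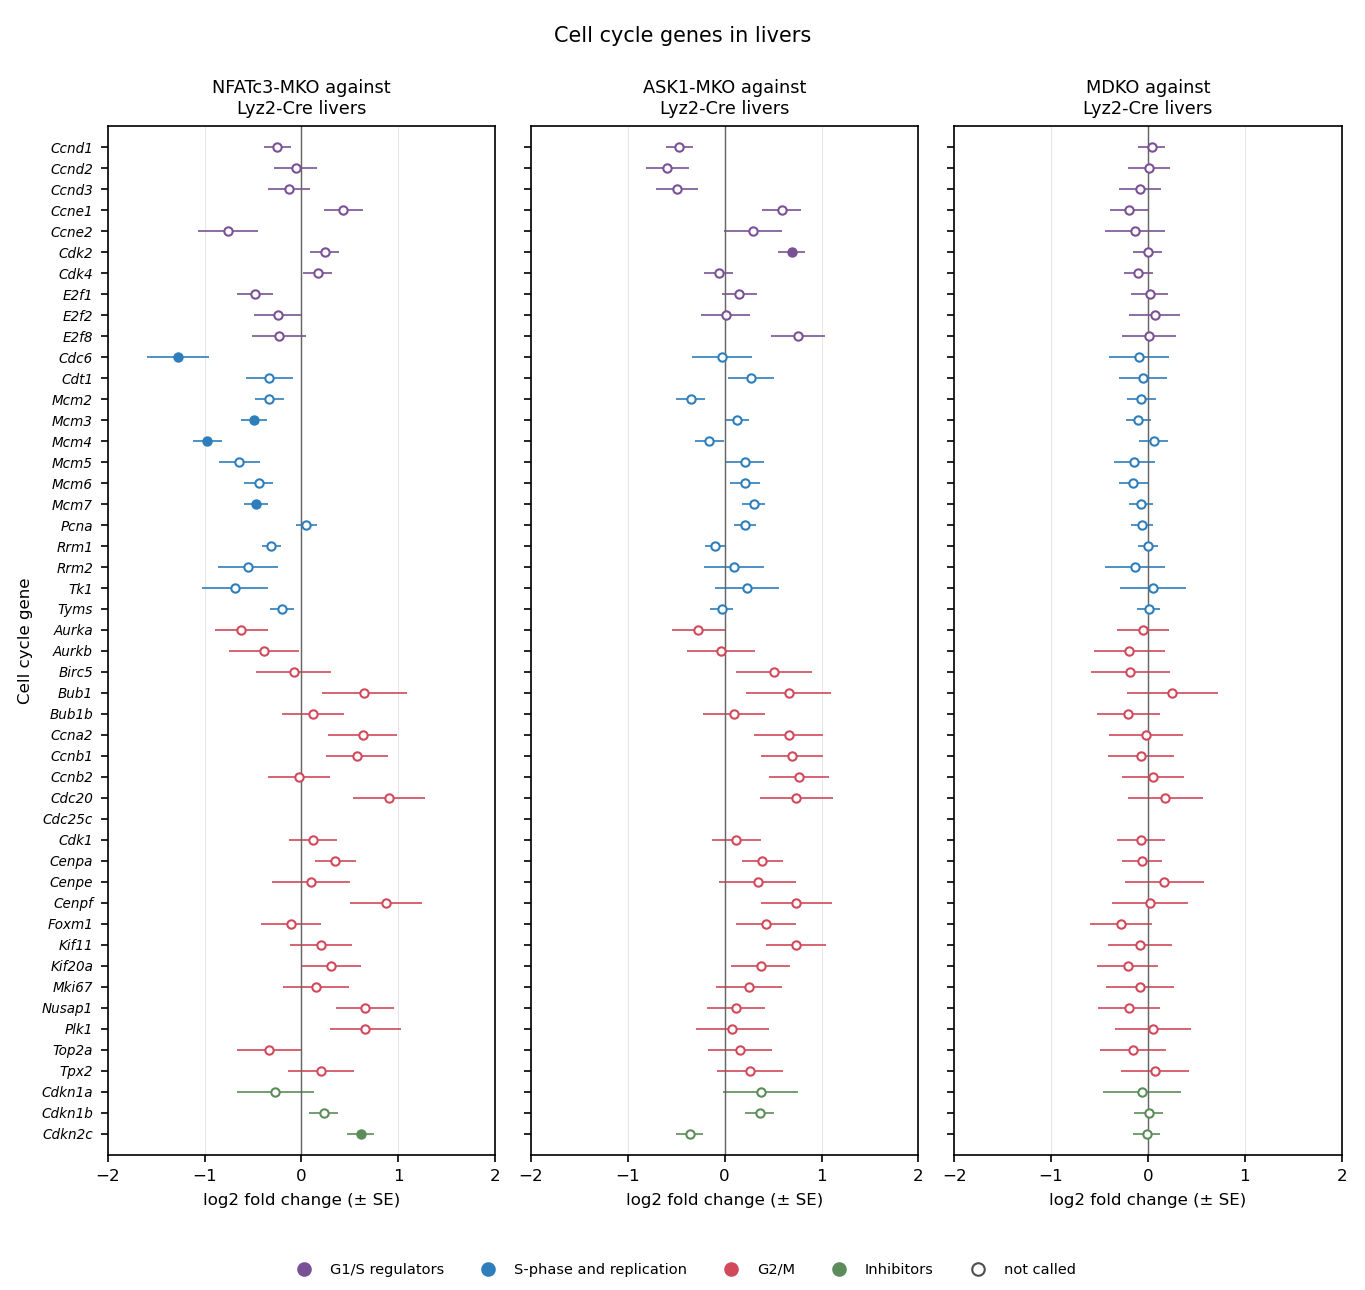
Log2 difference of each of the 47 tested members in the livers labelled NFATc3-MKO, ASK1-MKO and MDKO against Lyz2-Cre livers (points, with bars of 1 SE), ordered by role, with filled points for an adjusted p under 0.05. Filled points are 5 members for NFATc3-MKO, led by Mcm4 at -0.97 and Cdc6 at -1.27, Cdk2 at 0.69 for ASK1-MKO and none for MDKO.

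Mcm4, a core subunit of the replicative helicase, had 6.41, 7.53, 4.70 and 6.23 CPM in the NFATc3-MKO livers and 11.5, 13.2, 11.0 and 12.9 CPM in the Lyz2-Cre livers. The groups did not overlap, and the gene fell by 0.97 on the log2 scale (SE 0.15, edgeR adjusted p = 0.00295). This call held when each of the 8 libraries was left out in turn (-1.07 to -0.85). Cdc6, which loads the helicase onto origins, had 0.644, 1.1, 0.998 and 1.75 CPM against 2.41, 3.36, 2.38 and 2.63 CPM (-1.27, SE 0.32, adjusted p = 0.0262). Leaving out any of 3 libraries ended the call, with an adjusted p of 0.0608 and 0.0607 without Lyz2-Cre replicates 3 and 4 and of 0.0622 without NFATc3-MKO replicate 3. Mcm3 had 7.05, 8.28, 7.73 and 7.62 CPM against 10.1, 12.9, 9.59 and 10.4 CPM (-0.49, SE 0.13, adjusted p = 0.0281), and Mcm7 had 12.4, 10.3, 11.0 and 10.1 CPM against 15.3, 17.3, 13.3 and 14.7 CPM (-0.47, SE 0.12, adjusted p = 0.0307). Both were lower in every NFATc3-MKO library than in any Lyz2-Cre library, but the Mcm3 call was lost in 5 and the Mcm7 call in 7 of the 8 fits without 1 library (adjusted p up to 0.0689 and 0.0787). Cdkn2c, the p18 inhibitor, was higher, with 20.6, 16.8, 22.3 and 18.3 CPM against 14.7, 13.0, 10.8 and 12.6 CPM (0.61, SE 0.14, adjusted p = 0.0149), a call lost without Lyz2-Cre replicate 3 or 4 (adjusted p = 0.0698 and 0.0504).

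**Figure D4:**
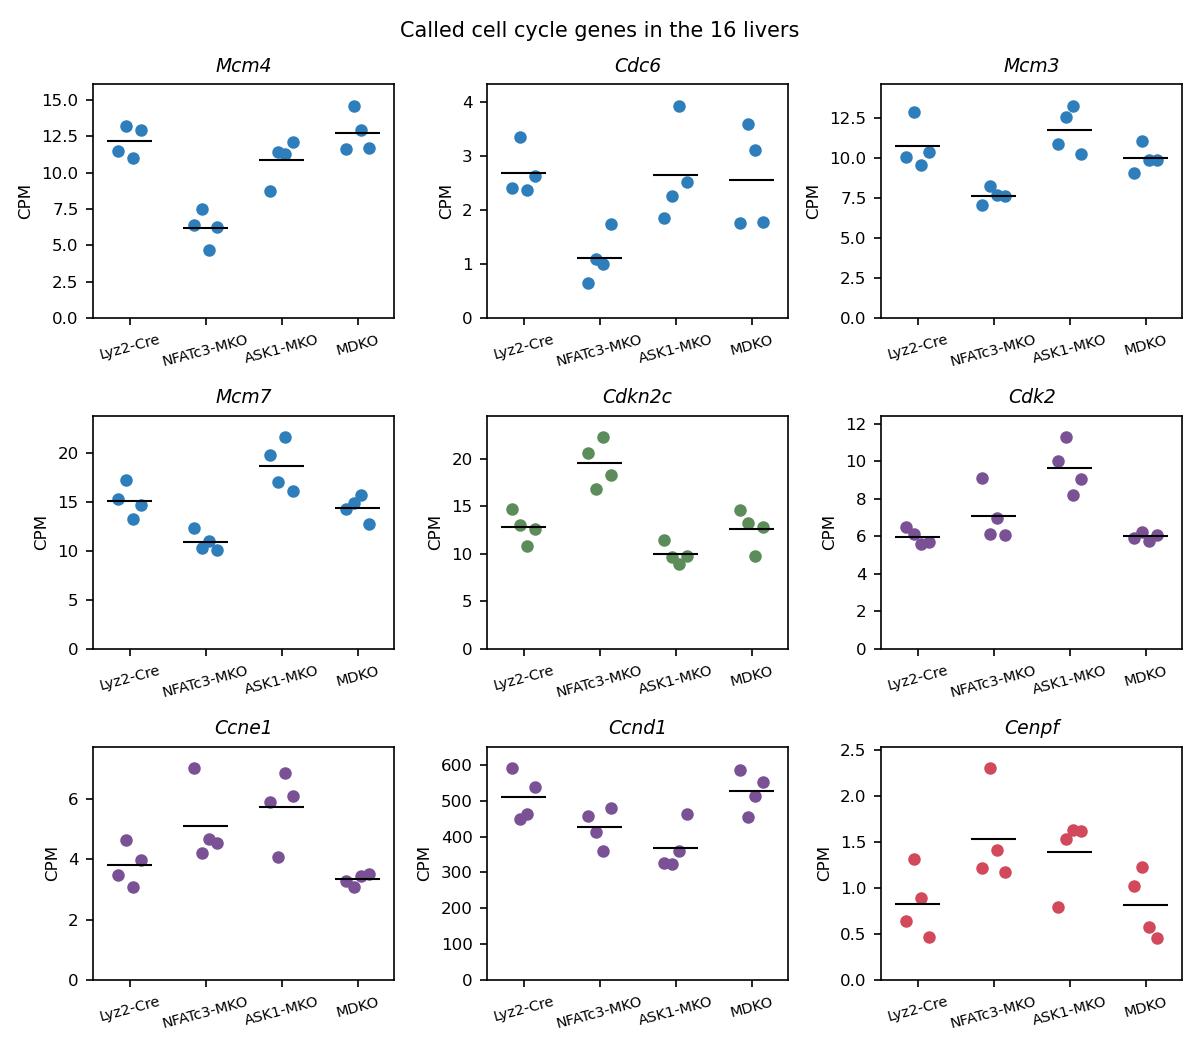
CPM of Mcm4, Cdc6, Mcm3, Mcm7, Cdkn2c, Cdk2, Ccne1, Ccnd1 and Cenpf in each of the 16 liver libraries (points; the bar is the group mean). Mcm4 lies at 4.70 to 7.53 CPM in the NFATc3-MKO livers and at 8.73 or above in all 12 other livers, and Cdk2 lies at 8.19 to 11.3 CPM in the livers labelled ASK1-MKO and at 5.61 to 6.47 in the Lyz2-Cre livers.

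The other replication members were not called in this comparison. Mcm5 had 6.95, 6.43, 4.84 and 9.01 CPM in the NFATc3-MKO livers and 10.1, 14.7, 8.84 and 8.77 CPM in the Lyz2-Cre livers, an overlap of 1 library (log2 difference -0.64, SE 0.21, edgeR adjusted p = 0.0607). Mcm2 had 7.63, 10.2, 11.1 and 9.69 CPM against 12.0, 15.1, 11.4 and 9.95 CPM (-0.33, SE 0.15, adjusted p = 0.164). Rrm2 had 11.7, 10.2, 13.4 and 16.5 CPM against 15.4, 25.2, 23.0 and 12.4 CPM (-0.55, SE 0.31, adjusted p = 0.262). Both overlapped, with the means of the NFATc3-MKO livers on the lower side. Tyms had 9.01, 7.75, 10.6 and 8.55 CPM against 11.3, 9.64, 10.1 and 10.3 CPM (-0.20, adjusted p = 0.278). Pcna had 38.6, 40.2, 43.4 and 32.0 CPM against 38.4, 38.6, 34.9 and 37.1 CPM (0.05, adjusted p = 0.798). Of 35 other replication genes 3 fell and none rose, namely Uhrf1 (-1.19, SE 0.22, adjusted p = 0.0065), the fork-protection gene Timeless (-0.94, SE 0.19, adjusted p = 0.00784) and the exonuclease Exo1 (-1.26, SE 0.30, adjusted p = 0.018). The median of these 35 was -0.17. Unlike that of the 13 members, the summed level of the 36 other replication genes listed was not lower. It was 188 to 264 CPM in the NFATc3-MKO livers and 187 to 247 CPM in the Lyz2-Cre livers. Of 50 other G2/M genes 1 fell, the kinetochore gene Spc24 (-0.69), and of 21 other G1/S genes Lin52 rose (0.51) and E2f3 fell (-0.56).

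No G2/M or G1/S member was called in the NFATc3-MKO livers, and the G2/M member Aurka had groups without overlap (log2 difference -0.62, SE 0.27, edgeR adjusted p = 0.159). Mki67 had 5.79, 13.0, 9.54 and 7.87 CPM against 5.87, 15.1, 5.38 and 6.24 CPM in the Lyz2-Cre livers (log2 difference 0.15, SE 0.34, edgeR adjusted p = 0.814). Top2a had 2.54, 5.82, 2.77 and 4.52 CPM against 3.26, 8.16, 4.44 and 3.82 CPM (-0.33, adjusted p = 0.558). Ccna2 had 2.29, 4.16, 3.85 and 2.24 CPM against 2.41, 3.31, 1.40 and 0.877 CPM (0.63, SE 0.36, adjusted p = 0.279). In all of them replicate 2 was the highest library of both groups. Ccnb1 had 2.74, 3.10, 3.73 and 2.28 CPM against 2.13, 3.06, 1.45 and 1.29 CPM (0.57, SE 0.32, adjusted p = 0.267), and Cdk1 had 4.76, 5.41, 7.10 and 3.21 CPM against 5.11, 6.41, 3.46 and 3.82 CPM (0.12, adjusted p = 0.792). E2f1 had 2.48, 1.59, 2.7 and 2.14 CPM against 3.70, 3.06, 3.04 and 2.63 CPM (-0.48, SE 0.19, adjusted p = 0.112), an overlap of 1 library. The inhibitors Cdkn1a and Cdkn1b overlapped as well. Cdkn1a had 5.18, 11.0, 20.4 and 9.58 CPM against 8.40, 20.0, 16.0 and 11.0 CPM (-0.27, adjusted p = 0.706), and Cdkn1b had 28.2, 32.6, 27.9 and 22.4 CPM against 18.8, 28.1, 24.2 and 23.8 CPM (0.23, adjusted p = 0.336).

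Markers of other cells differed between the same livers. In the NFATc3-MKO livers the neutrophil list summed to 7.44 to 43.8 CPM, against 2.77 to 11.2 in the Lyz2-Cre livers (2 of 4 tested rose). The B and plasma cell list summed to 16.7 to 54.8 against 6.87 to 11.8 (2 of 4 rose), the monocyte-derived and lipid-associated macrophage list to 124 to 839 against 90.6 to 251 (1 of 7 rose), and the macrophage list to 156 to 759 against 129 to 371 (none of 7 called). The Kupffer list summed to 174 to 227 against 199 to 400 (2 of 6 fell), the cholangiocyte list to 95.7 to 401 against 63.8 to 130 (2 of 6 rose), the stellate and fibroblast list to 390 to 992 against 507 to 634 (2 of 8 rose), the endothelial list to 92.9 to 148 against 138 to 183 (1 of 6 fell) and the hepatocyte list to 74851 to 114226 against 100912 to 135683 (1 of 7 fell). Spp1 (1.86) stands in both the monocyte-derived and the cholangiocyte list, so its rise was counted in each. The T and NK list summed to 2.61 to 9.57 against 2.43 to 4.67, and no marker of these lists was at 0 in all libraries of either group. The part of these cells in the replication gene result was not tested.

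In the livers labelled ASK1-MKO a single member was called against Lyz2-Cre livers, where 8.46% of all genes were called, and 3 members did not overlap, against 18.2%. Cdk2, the partner of cyclin E in starting S phase, had 10.0, 11.3, 8.19 and 9.04 CPM against 6.47, 6.12, 5.61 and 5.72 CPM, with no overlap (log2 difference 0.69, SE 0.14, edgeR adjusted p = 0.00791), and kept its call when each library was left out in turn. Ccne1 had 5.90, 4.07, 6.83 and 6.08 CPM against 3.46, 4.63, 3.09 and 3.97 CPM, which overlapped (0.59, adjusted p = 0.0708). Ccnd1 had 326, 324, 360 and 462 CPM against 592, 448, 464 and 538 CPM (-0.47, adjusted p = 0.0504). The cyclin D1 levels overlapped by 1 library, the mutant replicate 4. E2f8 had 10.9, 10.2, 5.91 and 8.33 CPM against 6.80, 5.56, 4.91 and 3.61 CPM (0.76, SE 0.28, adjusted p = 0.0994), and E2f1 had 2.95, 3.80, 3.94 and 3.16 CPM (0.15, adjusted p = 0.66 against the Lyz2-Cre values above).

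Of the 21 G2/M members tested, 19 had a positive difference in the livers labelled ASK1-MKO (median log2 difference 0.37, against -0.03 for all genes), and none was called. Mki67 had 6.24, 7.90, 11.9 and 12.8 CPM (0.25, SE 0.34, edgeR adjusted p = 0.706 against Lyz2-Cre), and Ccnb1 had 2.34, 3.27, 3.50 and 3.75 CPM (0.69, SE 0.32, adjusted p = 0.207). Ccna2 had 2.23, 2.97, 3.43 and 4.11 CPM (0.66, SE 0.36, adjusted p = 0.297). For each the lowest mutant library lay inside the range of the controls. Top2a had 3.74, 5.50, 6.80 and 5.92 CPM (0.16, adjusted p = 0.822), and Cdk1 had 4.20, 5.63, 5.67 and 5.02 CPM (0.12, adjusted p = 0.812). On the replication side Mcm2 had 9.11, 8.80, 11.2 and 8.81 CPM (-0.35, SE 0.15, adjusted p = 0.15), Mcm5 had 9.94, 11.7, 15.5 and 12.1 CPM (0.21, adjusted p = 0.572), and Rrm2 had 11.6, 12.6, 31.8 and 25.8 CPM (0.10, adjusted p = 0.877). Pcna was the replication member without overlap, at 42.8, 41.2, 46.3 and 42.5 CPM, and did not pass (0.21, SE 0.11, adjusted p = 0.234). Tyms had 9.41, 10.4, 10.3 and 10.4 CPM (-0.03, adjusted p = 0.914), Cdkn1a 12.4, 12.8, 28.3 and 18.0 CPM (0.37, adjusted p = 0.622) and Cdkn1b 32.4, 29.0, 35.4 and 25.2 CPM (0.36, adjusted p = 0.14). Among the other genes of the cycle, Lin54 (0.77) and Lin52 (0.52), subunits of the DREAM complex, rose. The erythroid list summed to 127 to 183 CPM in the livers labelled ASK1-MKO against 210 to 271 in the Lyz2-Cre livers (2 of 5 tested fell), and its part in these values was not tested.

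No member passed the test between livers labelled MDKO and Lyz2-Cre livers. None of 47 was called, where 0.0% of all genes were called by edgeR, DESeq2 and limma voom alike, and none of the 47 had an unadjusted p under 0.05, against 35 of the 13309 genes (0.263%). That share is far below the 0.05 that a valid test gives without any difference, so this unpaired test cannot judge these groups. MDKO replicate 3 differed from Lyz2-Cre replicate 3 by 1.4 times sampling noise, and from its own group by at least 3.28 times. No member had groups without overlap, against 0.458% of all genes. The log2 differences ran from -0.28 to 0.25. Same-numbered libraries of the 2 groups went together, as in Ccne2, with 2.64, 5.52, 3.57 and 4.83 CPM in the livers labelled MDKO and 2.69, 6.5, 3.51 and 5.62 CPM in the Lyz2-Cre livers. Mki67 had 5.69, 11.5, 7.48 and 6.20 CPM (-0.08, SE 0.35), with the same high replicate 2, and Top2a had 3.01, 7.16, 3.91 and 3.50 CPM (-0.15, SE 0.34). Ccna2 had 2.36, 2.86, 1.5 and 1.12 CPM (-0.02), Ccnb1 1.85, 3.27, 1.04 and 1.21 CPM (-0.07) and Cdk1 4.21, 6.10, 4.49 and 3.16 CPM (-0.07). In each of these replicate 2 was the highest library, as in the Lyz2-Cre livers, while the order of the others was not always the same. Mcm2 had 11.7, 12.4, 10.9 and 10.8 CPM (-0.07), Mcm5 8.51, 11.9, 9.33 and 8.78 CPM (-0.14), Pcna 40.0, 34.7, 36.4 and 31.9 CPM (-0.06) and Rrm2 16.4, 23.8, 17.0 and 12.3 CPM (-0.13). Tyms had 11.7, 10.2, 10.7 and 9.20 CPM (0.01), E2f1 3.14, 3.56, 3.11 and 2.79 CPM (0.02), Cdkn1a 7.58, 17.1, 19.8 and 9.41 CPM (-0.06) and Cdkn1b 21.6, 27.7, 22.0 and 24.0 CPM (0.01). A missed threshold does not show equality. Fitted with the replicate number as a block, which pairs these 2 groups, the comparison still gave 0 calls.

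Set directly against each other, the NFATc3-MKO livers and those labelled ASK1-MKO differed in 11 of 47 members, 10 of them lower in NFATc3-MKO, where 12.8% of all genes were called, 5.61% lower and 7.15% higher. Groups did not overlap for 9 members, against 14.6% of all genes. This comparison shares its libraries with those above. Of the 13 replication members 6 fell, namely Mcm7 (log2 difference -0.77, edgeR adjusted p = 0.00086), Mcm4 (-0.81, adjusted p = 0.00243), Mcm3 (-0.62, adjusted p = 0.00505), Mcm6 (-0.65, adjusted p = 0.0121), Mcm5 (-0.85, adjusted p = 0.0132) and Cdc6 (-1.24, adjusted p = 0.0187). The 5 Mcm calls were kept in all 8 fits without 1 library, and Cdc6 was lost without ASK1-MKO replicate 3 or NFATc3-MKO replicate 3 (adjusted p = 0.0659 and 0.0514). Mcm6, whose promoter is printed above, had 21.3, 15.7, 16.6 and 17.9 CPM in the NFATc3-MKO livers and 24.8, 29.7, 31.5 and 26.3 CPM in those labelled ASK1-MKO. Mcm7 had 19.8, 17.1, 21.7 and 16.2 CPM, Mcm4 had 8.73, 11.4, 11.3 and 12.1 CPM, and Mcm3 had 10.9, 12.6, 13.3 and 10.3 CPM in the livers labelled ASK1-MKO. All of them were above every NFATc3-MKO library. Cdkn2c was the 1 member higher in NFATc3-MKO, with 11.5, 9.70, 8.94 and 9.79 CPM in the livers labelled ASK1-MKO (0.97, SE 0.14, adjusted p = 0.000409).

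The G1/S regulators called in that comparison were E2f8 (-0.99, edgeR adjusted p = 0.0281), E2f1 (-0.64, adjusted p = 0.0333), Ccne2 (-1.05, adjusted p = 0.0351) and Cdk2 (-0.45, adjusted p = 0.0476). Ccne2 had 3.03, 2.72, 1.59 and 3.42 CPM in the NFATc3-MKO livers and 3.93, 6.73, 7.07 and 4.54 CPM in those labelled ASK1-MKO, with no overlap. Cdk2 had 9.08, 6.13, 6.95 and 6.06 CPM in the NFATc3-MKO livers, the first of which lay inside the range of the livers labelled ASK1-MKO. For E2f8 the NFATc3-MKO values were 6.69, 4.31, 3.36 and 3.46 CPM, and the highest of them overlapped the lowest of the other group. The E2f1 call was lost in 4 and the E2f8 call in 5 of the 8 fits without 1 library (adjusted p up to 0.085 and 0.0822). Of 35 other replication genes 10 fell (median -0.31), led by Uhrf1 (-1.41), Timeless (-1.06), Exo1 (-1.35) and the polymerase subunit Pola1 (-0.75). The 36 other replication genes listed summed to 188 to 264 CPM in NFATc3-MKO against 249 to 267 CPM, which overlapped. No G2/M member was called and the median of the 21 was -0.06. In the same groups the neutrophil list summed to 7.44 to 43.8 CPM in NFATc3-MKO against 1.58 to 4.54 (4 of 4 tested rose), the monocyte-derived and lipid-associated macrophage list to 124 to 839 against 84.6 to 187 (5 of 7 rose) and the erythroid list to 209 to 337 against 127 to 183 (3 of 5 rose). The B and plasma cell list summed to 16.7 to 54.8 against 8.01 to 14.6 (2 of 4 rose), the cholangiocyte list to 95.7 to 401 against 43.7 to 150 (3 of 6 rose) and the hepatocyte list to 74851 to 114226 against 110580 to 128111 (2 of 7 fell). Spp1 (1.65) was again counted in both the monocyte-derived and the cholangiocyte list. The part of these cells in the result was not tested.

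Against NFATc3-MKO livers, those labelled MDKO had 3 called members, where 7.35% of all genes were called, and 10 members whose groups did not overlap, against 12.7%. Mcm4 was higher, with 11.6, 14.6, 12.9 and 11.7 CPM against the NFATc3-MKO values above and no overlap (log2 difference 1.03, SE 0.15, edgeR adjusted p = 0.00227), and Cdc6 was higher, with 1.76, 3.60, 3.11 and 1.79 CPM (1.18, SE 0.33, adjusted p = 0.038), barely above the highest NFATc3-MKO library. Cdkn2c was lower, with 14.6, 13.2, 9.79 and 12.8 CPM (-0.62, SE 0.14, adjusted p = 0.0138). The Mcm4 call was kept in all 8 fits without 1 library, the Cdc6 call was lost in 6 of them (adjusted p up to 0.115), and the Cdkn2c call was lost without MDKO replicate 3 (adjusted p = 0.0548), the shallow library. Against the livers labelled ASK1-MKO, those labelled MDKO had 3 called members, where 7.72% of all genes were called, and 7 members whose groups did not overlap, against 18.1%. Cdk2 was lower, with 5.92, 6.22, 5.76 and 6.08 CPM and no overlap (-0.68, SE 0.15, adjusted p = 0.00894), kept in all 8 fits. Ccne1 was lower, with 3.28, 3.07, 3.45 and 3.50 CPM (-0.78, adjusted p = 0.0235) and no overlap, and Ccnd1 was higher, with 585, 455, 512 and 553 CPM (0.52, adjusted p = 0.0357) and an overlap of 1 library. Those calls were lost in 7 and 6 of the 8 fits without 1 library (adjusted p up to 0.065 and 0.119). These comparisons share the NFATc3-MKO or ASK1-MKO libraries with those against Lyz2-Cre. The same marker lists moved between the livers labelled MDKO and NFATc3-MKO, with the neutrophil list at 2.17 to 8.59 CPM in the former (3 of 4 tested fell) and the Kupffer list at 136 to 486 (2 of 6 rose), and their part was not tested.

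The interaction term asks whether the livers labelled MDKO departed from the sum of the 2 single-knockout differences. It was called for 5 of 47 members, where 16.2% of all genes were called. Mcm4 was 1.19 on the log2 scale above that sum (SE 0.21, edgeR adjusted p = 0.00124) and Ccnd1 0.77 above it (SE 0.20, adjusted p = 0.0159). Cdk2 was below it, at -0.92 (SE 0.21, adjusted p = 0.00649), as was Ccne1 at -1.21 (SE 0.28, adjusted p = 0.00789). Ccne1 had 7.02, 4.20, 4.66 and 4.52 CPM in the NFATc3-MKO livers, so the mean of both single knockouts lay above that of the Lyz2-Cre livers and the mean of the livers labelled MDKO below it. For Ccnd1 the NFATc3-MKO values were 458, 413, 360 and 481 CPM, on the low side of the Lyz2-Cre range like those of the livers labelled ASK1-MKO. These 4 calls were kept in all 16 fits without 1 library. Cenpf was called at -1.59 (SE 0.53, adjusted p = 0.049) from low levels of 0.458 to 2.31 CPM, and was lost in 11 of the 16 fits (adjusted p up to 0.104). The share of members called was below that of all genes. All 4 MDKO libraries lay nearest to a Lyz2-Cre library, and their Nfatc3 and Map3k5 were near the Lyz2-Cre levels. A dependence between the knockouts therefore cannot be read from this term, and the part of that closeness was not tested.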

How the data were processed

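RNA was measured by poly-A, dUTP-stranded libraries, per the labels' protocols, with HISAT2 and the mm10 build named in the submitters' processing notes. Not given in the sources used here are the read counter, its annotation and whether counting used the strand. The liver table was deposited by the authors as estimated counts (expected counts) per gene, of which 85.42% were already whole, and they were rounded here. Both BMDM tables were deposited by the authors as whole counts per gene, each set in its own table, so tests stayed within a table.

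Each table was fitted whole in R 4.3.3 with edgeR 4.0.16 (TMM scaling, filterByExpr, quasi-likelihood test, Benjamini-Hochberg adjustment over all genes tested, threshold 0.05). A prior count of 2 was used only for the log2 CPM from which libraries were correlated. All 4 liver groups shared 1 fit. Alternatives were DESeq2 1.42.0, limma 3.58.1 (voom with quality weights), DESeq2 size factors, other filters, a threshold of 0.1, the replicate number as a block, 2-group fits and leaving out each library. The fit of 2 groups with the block was added after the data were seen.

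The members and lists were chosen with earlier results of these data known. Full values were given for members called in a comparison (where more than 8 were called, the 8 with the smallest p) and for 15 fixed cycle genes. Replicate numbers paired the Lyz2-Cre and MDKO livers (same-numbered libraries correlated at 0.24 to 0.53 in all 4 pairs) and no other groups, from the data and not from a label. On simulated counts the fit recovered 69% of 2-fold and 88.8% of 4-fold changes for NFATc3-MKO against Lyz2-Cre livers (13199 genes), 88.5% and 100% for NFATc3-MKI (13230 genes) and 97% and 100% for ASK1-MKI (11300 genes). False calls on these simulated counts were 13 of 169 calls, 11 of 192 and 8 of 205, in the same order. Promoters are RefSeq's on GRCm38.p6. Intervals and floors cover counting error only.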

Additional observations from a re-analysis of the deposited data

Results flagged for a closer look

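Examined were 124 sets of 4 values, each of a gene or a summed level in 1 liver group. In 8 sets a library's gap to its nearest neighbour, as a share of the set's range, exceeded Dixon's critical value. Chance gives about 1 in 20 sets, so 8 is near what chance gives. The sets share the same livers and are not independent. Lyz2-Cre replicate 2 was the high library in 4 of them. It had 15.1 CPM of Mki67 (5.38 to 6.24 in the other Lyz2-Cre livers), 2.85 CPM of the spindle motor gene Kif11 (others 1.21 to 1.44), 2.38 CPM of Nusap1 (others 1.08 to 1.24) and a summed G2/M level of 79.0 CPM (others 36.1 to 42.8). That sum includes these genes. In the livers labelled ASK1-MKO, replicate 1 was low for Cenpf, at 0.794 CPM (others 1.53 to 1.63), and for Tyms, at 9.41 CPM (others 10.3 to 10.4). Replicate 3 of that group was high for Mcm2, at 11.2 CPM (others 8.80 to 9.11). NFATc3-MKO replicate 1 was high for Ccne1, at 7.02 CPM (others 4.20 to 4.66).

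The interaction term of the edgeR fit was called for 5 of 47 members, where 16.2% of all genes were called, so the members' share was below that of all genes. The interaction was 1.19 on the log2 scale for Mcm4, 0.77 for Ccnd1, -0.92 for Cdk2, -1.21 for Ccne1 and -1.59 for Cenpf, whose call was lost in 11 of the 16 fits without 1 library. All 4 MDKO libraries lay nearest to a Lyz2-Cre library, and the part of that closeness in these values was not tested.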

How the results depend on the processing

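Of the 48 members, 43 to 46 were called for ASK1-MKI under every alternative and with each library left out (43 to 46 without 1 library), and 0 for MDKO against Lyz2-Cre livers under every alternative. For NFATc3-MKI the count was 14, with 22 by limma voom and 11 to 18 without 1 library. For NFATc3-MKO against Lyz2-Cre livers it was 5, with 8 at an adjusted p under 0.1, 1 in the fit of the 2 groups alone and 1 to 7 without 1 library (1 without Lyz2-Cre replicate 3 or 4, 2 without NFATc3-MKO replicate 3). For ASK1-MKO against Lyz2-Cre livers it was 1, with 3 by DESeq2, 9 by limma voom, 2 at a mean of at least 1 CPM, 4 at an adjusted p under 0.1, 3 in the fit of the 2 groups alone and 1 to 4 without 1 library (4 without Lyz2-Cre replicate 2, 2 without ASK1-MKO replicate 2 or 4). For NFATc3-MKO against ASK1-MKO livers it was 11, with 6 in the fit of the 2 groups alone and 7 to 14 without 1 library (7 without ASK1-MKO replicate 2 or NFATc3-MKO replicate 2 or 3). For MDKO against NFATc3-MKO livers it was 3, with 7 by DESeq2, 8 by limma voom, 8 at an adjusted p under 0.1, 1 in the fit of the 2 groups alone and 1 to 4 without 1 library (1 without MDKO replicate 3). For MDKO against ASK1-MKO livers it was 3, with 11 by limma voom and 1 to 3 without 1 library (1 without ASK1-MKO replicate 1 or 3 or MDKO replicate 1, 3 or 4). For the interaction it was 5, with 11 by DESeq2, 11 by limma voom, 13 at an adjusted p under 0.1 and 4 to 12 without 1 library (12 without Lyz2-Cre replicate 2, 9 without MDKO replicate 2 or NFATc3-MKO replicate 4). The cause of these moves was not tested.

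With the replicate block the counts were 5 for NFATc3-MKO, 4 for ASK1-MKO and 0 for MDKO against Lyz2-Cre livers, 13 for NFATc3-MKO against ASK1-MKO, 5 for MDKO against NFATc3-MKO, 5 for MDKO against ASK1-MKO, 11 for the interaction, 13 for NFATc3-MKI and 45 for ASK1-MKI. Only the Lyz2-Cre and MDKO livers are paired by their numbers. No log2 difference of a named member changed sign while called. Over the named members and alternatives, 74 log2 differences lost and 47 gained a call, 35 stayed uncalled but moved by more than their SE, and the other 2292 kept their call or stayed uncalled within their SE. MDKO replicate 3 was the shallowest library of the livers, and without it MDKO against NFATc3-MKO gave 1 call. The part of its depth in the calls was not tested.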

Other observations

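Genes that p53 switches on were also measured, from a list chosen with results of these data known. In the cultures labelled ASK1-MKI 11 of 18 fell and 3 rose (median log2 difference -0.40), where 24.5% of all genes fell and 24.6% rose. Plk2, a kinase induced by stress, was 92.2 ± 0.79 CPM against 183 ± 2.4 in the controls (-0.99, SE 0.03, edgeR adjusted p = 2.22e-58), and Mdm2, which degrades p53, was 226 ± 1.94 against 312 ± 12.7 (-0.47, SE 0.03, adjusted p = 1.57e-34; SD, n = 3). The death receptor gene Fas fell by 1.00 and the stress cytokine gene Gdf15 by 1.18. In the cultures labelled NFATc3-MKI 6 of 17 rose and 4 fell (median 0.09), where 16.5% of all genes rose and 16.8% fell. Plk2 was 155 ± 19.3 CPM against 56.4 ± 8.5 (1.46, SE 0.11, adjusted p = 7.83e-10) and Plk3 39.8 ± 3.26 against 24.3 ± 2.11 (0.71), whereas the antiproliferative gene Btg2 was 20.4 ± 1.97 against 30.8 ± 5.89 (-0.59, adjusted p = 0.00206).

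A list of 12 genes of growth factors, their receptors and quiescence was also chosen with results known. Against Lyz2-Cre livers, 1 of 12 rose in the NFATc3-MKO livers, Hbegf (1.01, SE 0.30, edgeR adjusted p = 0.048), where 8.45% of all genes were called. In the livers labelled ASK1-MKO 1 of 12 rose and 1 fell, where 8.46% of all genes were called. In the cultures labelled NFATc3-MKI 3 of 7 tested rose and 2 fell, where 33.3% of all genes were called, and in those labelled ASK1-MKI 5 of 8 fell and none rose, where 49.1% were called, Csf1 (-0.46) and the receptor gene Met (-0.60) among them. Hbegf, a ligand of the EGF receptor, was 70.3 ± 2.95 CPM in the cultures labelled NFATc3-MKI against 26.1 ± 2.71 in the controls (1.43, SE 0.11, edgeR adjusted p = 4.31e-10), and Csf1 was 18.7 ± 2.3 against 8.57 ± 0.493 (1.12, adjusted p = 9.36e-06). In the livers labelled ASK1-MKO Egfr, the receptor, was 144 ± 39.8 CPM against 63.0 ± 13.3 in Lyz2-Cre livers (1.19, SE 0.22, adjusted p = 0.00316), 62.9 ± 16.1 in those labelled MDKO and 60.5 ± 8.34 in NFATc3-MKO livers, and Csf1 was 10.5 ± 0.511 against 18.2 ± 3.6 (-0.80, adjusted p = 0.0139; SD, n = 4).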
